A study of Mus musculus with 7 samples.

Results

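The genes described here make, break down and read out cyclic AMP: the adenylyl cyclases, the cyclic nucleotide phosphodiesterases and the subunits of protein kinase A (PKA). They were taken by symbol from the protein-coding genes on chromosomes 1 to 19: every gene named Adcy or Pde with a number, and the 6 PKA genes Prkaca, Prkacb, Prkar1a, Prkar1b, Prkar2a and Prkar2b. This gave 42 of 20661 genes. Of these, 10 encode cyclases, 8 encode phosphodiesterases that cleave both cyclic AMP and cyclic GMP, 8 encode phosphodiesterases specific for cyclic AMP, 7 encode phosphodiesterases or subunits specific for cyclic GMP, and 6 encode PKA subunits. The other 3, Pde4dip, Pde6d and Pde12, carry the symbol but are not cyclic nucleotide phosphodiesterases: Pde4dip (myomegalin) is a scaffold of the Golgi and centrosome that binds Pde4d, Pde6d carries lipid-modified proteins between membranes, and Pde12 is a mitochondrial enzyme that trims RNA tails.

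As background, adenylyl cyclases make cyclic AMP from ATP when receptors act through the stimulatory G protein, and some of them also respond to calcium bound to calmodulin, which links neuronal firing to the messenger. Cyclic AMP binds the regulatory subunits of PKA and frees its catalytic subunits, which phosphorylate many targets, among them the transcription factor CREB. Phosphodiesterases end the signal and restrict where in the cell it acts. In the hippocampus this pathway is known for its part in lasting synaptic strengthening and memory.

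Fos, a subunit of the transcription factor AP-1 that neurons make after strong activity, was mapped by chromatin immunoprecipitation and sequencing (ChIP-seq) in mouse hippocampus. All mice were wild type (WT), of strain C57BL/6J and 2 months old. The saline group had 3 libraries. The kainic acid group, also with 3 libraries, came from mice given 10 mg/kg of this glutamate receptor agonist by intraperitoneal injection, 2 times with 30 min between, that reached level 4 seizures and were taken 1 hour after the first injection. A library of input chromatin, 1 in all, is not analysed here. Neither the number of animals behind a library nor whether replicates are separate animals is given, so the spread between libraries may be technical. Kainic acid replicates 1, 2 and 3 had 15009, 63197 and 29650 peaks, and saline replicates 1, 2 and 3 had 7, 3277 and 2. The lists thus differ in length within each group, and kainic acid replicate 2 is the longest by far. Read totals are unknown, so a peak missing from a short list was not detected at that library's depth and is not shown to be absent. Peak lists hold no expression, so the tissue label could not be checked against expressed markers.

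A kainic acid region, below a region, is a stretch of overlapping peaks found in 2 or 3 of the kainic acid lists. A region was counted for a gene when it touched the span of the gene or the 10 kb on either side. The fold of a peak is the authors' value over the local background, reads over a summit are solved from it and its p, and the best region of a gene is the one in all 3 lists with the best mean percentile rank of fold. Promoter sequences come from RefSeq (assembly GRCm38.p6, the same coordinates as mm10) and run from 250 bases before a start site to 50 after it, 5′ to 3′ on the strand of the gene. The table had entries for 33 of the 42 genes, with 71 windows in all. The first 3 windows below are the only ones of the 71 that hold the AP-1 motif, TGAGTCA or its other strand TGACTCA, the sequence that Fos binds with a Jun partner. The fourth holds the cyclic AMP response element (CRE), TGACGTCA, which reads the same on both strands, is bound by CREB and does not contain the AP-1 motif. The next 2 are the only windows under a region, and the last lies under a saline peak alone. Capitals mark the AP-1 motif or the CRE, and a window without capitals holds neither.
Pde6b, chr5:108388123-108388422, plus strand: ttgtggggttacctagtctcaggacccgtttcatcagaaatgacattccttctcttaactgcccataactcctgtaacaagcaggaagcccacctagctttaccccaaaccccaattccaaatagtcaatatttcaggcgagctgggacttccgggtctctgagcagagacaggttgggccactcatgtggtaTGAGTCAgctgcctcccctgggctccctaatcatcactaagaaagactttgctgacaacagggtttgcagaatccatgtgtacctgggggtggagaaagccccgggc
Adcy7, chr8:88288816-88289115, plus strand: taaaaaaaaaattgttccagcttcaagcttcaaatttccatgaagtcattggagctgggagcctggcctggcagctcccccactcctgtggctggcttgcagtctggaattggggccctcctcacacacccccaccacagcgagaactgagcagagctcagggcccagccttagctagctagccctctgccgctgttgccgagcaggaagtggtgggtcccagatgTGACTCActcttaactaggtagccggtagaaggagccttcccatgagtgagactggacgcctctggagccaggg
Pde1c, chr6:56369585-56369884, minus strand: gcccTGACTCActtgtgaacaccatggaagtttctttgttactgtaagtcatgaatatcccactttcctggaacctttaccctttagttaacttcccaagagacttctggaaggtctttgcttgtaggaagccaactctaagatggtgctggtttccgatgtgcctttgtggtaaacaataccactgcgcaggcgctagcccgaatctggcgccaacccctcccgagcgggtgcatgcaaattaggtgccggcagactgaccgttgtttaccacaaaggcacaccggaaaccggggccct
Prkar1a, chr11:109650699-109650998, plus strand: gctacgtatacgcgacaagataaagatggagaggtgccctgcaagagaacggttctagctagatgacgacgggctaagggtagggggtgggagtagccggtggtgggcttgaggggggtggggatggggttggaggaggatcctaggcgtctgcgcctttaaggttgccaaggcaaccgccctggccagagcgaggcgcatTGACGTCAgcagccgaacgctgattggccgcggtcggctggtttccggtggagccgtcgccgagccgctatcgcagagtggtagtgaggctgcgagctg
Pde10a, chr17:8801495-8801794, plus strand: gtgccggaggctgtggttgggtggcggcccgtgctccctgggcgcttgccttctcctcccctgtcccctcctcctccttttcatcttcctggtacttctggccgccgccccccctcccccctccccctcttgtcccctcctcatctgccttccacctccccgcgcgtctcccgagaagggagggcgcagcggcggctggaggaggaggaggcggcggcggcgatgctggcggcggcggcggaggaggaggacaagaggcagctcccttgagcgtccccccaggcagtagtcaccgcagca
Pde4a, chr9:21165464-21165763, plus strand: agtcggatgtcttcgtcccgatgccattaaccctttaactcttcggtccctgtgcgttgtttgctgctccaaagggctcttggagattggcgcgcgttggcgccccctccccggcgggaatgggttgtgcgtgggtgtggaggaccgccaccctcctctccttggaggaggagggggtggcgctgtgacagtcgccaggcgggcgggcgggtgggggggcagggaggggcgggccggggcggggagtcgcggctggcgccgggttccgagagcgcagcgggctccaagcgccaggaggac
Prkaca, chr8:83972728-83973027, plus strand: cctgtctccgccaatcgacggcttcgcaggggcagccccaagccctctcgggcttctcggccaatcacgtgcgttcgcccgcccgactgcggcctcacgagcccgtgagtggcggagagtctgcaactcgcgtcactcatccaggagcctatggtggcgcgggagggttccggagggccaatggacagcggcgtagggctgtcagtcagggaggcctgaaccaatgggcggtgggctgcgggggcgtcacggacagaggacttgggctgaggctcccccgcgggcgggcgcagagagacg

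The 3 windows with an AP-1 motif were 4.23% of the 71, against 4.70% of 20084 windows of protein-coding genes. In Pde6b, which encodes the catalytic beta subunit of the rod photoreceptor phosphodiesterase, the motif began 57 bases before the start site, and the nearest peaks lay 1.99, 1.08 and 1.69 kb from the window in kainic acid replicates 1, 2 and 3. In Adcy7, a cyclase best known from blood cells, it began 24 bases before the start site, and the nearest kainic acid peaks were 228, 36.7 and 228 kb away. In Pde1c, a phosphodiesterase switched on by calcium and calmodulin, it began 246 bases before the start site and the nearest peaks were 504, 53.0 and 52.9 kb away. Only the Pde6b window of these 3 thus had kainic acid peaks close by, and no kainic acid peak touched any of them. A CRE was found in 2 overlapping windows of Prkar1a (2 of 71, against 462 of the 20084 windows), which share the same 8 letters, so it is a single site. Neither motif was found in the windows of Pde10a, Pde4a and Prkaca.

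Regions covered 2 of the 71 windows, 2.82%, against 5.38% of all windows. Of the 1080 windows of protein-coding genes under a region, 17.5% held the AP-1 motif and 4.54% the CRE. At Pde10a, a phosphodiesterase abundant in the striatum, a peak of replicate 2 (31 reads over its summit, fold 6.21 over the background) and one of replicate 3 (29 reads, fold 5.22) reached into the window, with summits 116 and 148 bases after the start site and so beyond the printed letters. At Pde4a, a cyclic AMP phosphodiesterase of the rolipram-sensitive family, the replicate 2 peak shared 23 bases with the window, and its summit (54 reads, fold 12.2) lay 1323 bases before the start site. Taken list by list, peaks of kainic acid replicates 1, 2 and 3 touched 0, 11 and 1 of the 71 windows, against 1.21%, 13.1% and 3.83% of all windows; the 11 (15.5%) belonged to 9 of the 33 genes. Peaks of saline replicate 2 touched 4 windows (5.63%, against 6.55% of all windows), those of Adcy3, Pde10a, Prkaca and Prkar1b. No genome sequence of the build was used here, so the letters under the peaks themselves are not given.

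Of the 42 genes, 32 had a region within 10 kb, which is 76.2%, against 41.8% of the 20661 protein-coding genes. These genes are long, with a median span of 92.2 kb against 17.5 kb, and long genes hold more regions. Beside each gene the 200 other protein-coding genes nearest to it in length were therefore set, and their shares summed to 28.2 of 42, or 67.2%. In number of regions, 19 genes were above the median of the genes of their length, 11 were below it and 12 were at it. The median density was 1.41 regions per 100 kb, against 1.17 for genes of similar length and 0 over all genes. By other measures the difference was small. The mean was 3.38 regions per gene, against 3.24 for genes of similar length. Pooled over all the sequence searched, the density was 1.75 regions per 100 kb, against 1.65 for all genes. Most of the distance between these genes and the genome is thus also seen for other genes of their length, and the rest, 32 against 28.2 genes, was not tested.

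The share with a region rose with length in the genome and among the 42 genes. Of all genes under 10 kb, 23.5% had a region, as did 1 of the 2 members of that length. It was 38.2% from 10 to 30 kb (4 of 7), 53.8% from 30 to 100 kb (9 of 13), 81.0% from 100 to 300 kb (10 of 12) and 93.0% above 300 kb (8 of 8). Within each class of length the share among the 42 genes was above that of all genes, with few genes in a class and no test.

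**Figure D1:**
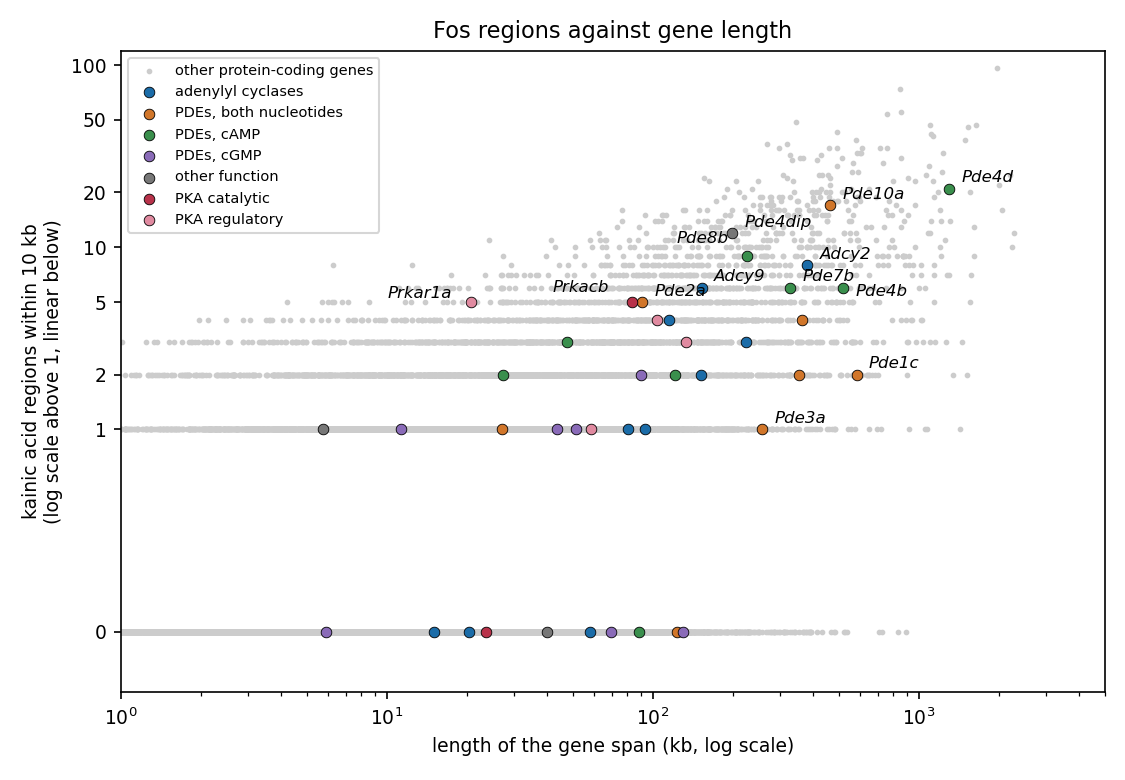
Number of kainic acid regions within 10 kb (vertical axis, linear up to 1 and logarithmic above) against the length of the gene span in kb (logarithmic), with each protein-coding gene as a grey point and the 42 genes coloured by role. The coloured points follow the grey cloud upwards with length; Prkar1a, with 5 regions at 20.6 kb, stands near its upper edge, and Pde1c and Pde3a, with 2 and 1 regions, lie low for their length.

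Counted list by list, kainic acid replicates 1, 2 and 3 had a peak within 10 kb of 27, 40 and 31 of the 42 genes, against 27.7%, 62.6% and 42.7% of all genes. Saline replicates 1, 2 and 3 had one near 0, 13 and 0, and saline replicate 2 had one near 17.9% of all genes. The 3 kainic acid lists held 81, 360 and 166 peaks near these genes, which was 0.540%, 0.570% and 0.560% of each list, and saline replicate 2 held 15, or 0.458% of its list. The counts thus followed the length of the list, while the share of each list was similar. Density was 0.986, 5.59 and 1.36 peaks per 100 kb (median over the genes) in the 3 kainic acid lists, a mean of 2.65 ± 2.56 (SD, n = 3).

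All 3 kainic acid lists shared a region at 23 of the 42 genes, against 25.0% of all genes and a sum of 20.9 for genes of similar length. The number of peaks was higher in every kainic acid list than in every saline list for 24 of the 42, against 21.6% of all genes and a sum of 19.6 for genes of similar length. For each of these 24 the two-sided exact permutation test over the 20 assignments of 6 lists gave p = 0.1, the smallest that 3 libraries against 3 allow, so no single gene can pass 0.05. The lists' total lengths are ordered in the same way, and their part in these counts was not tested.

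**Figure D2:**
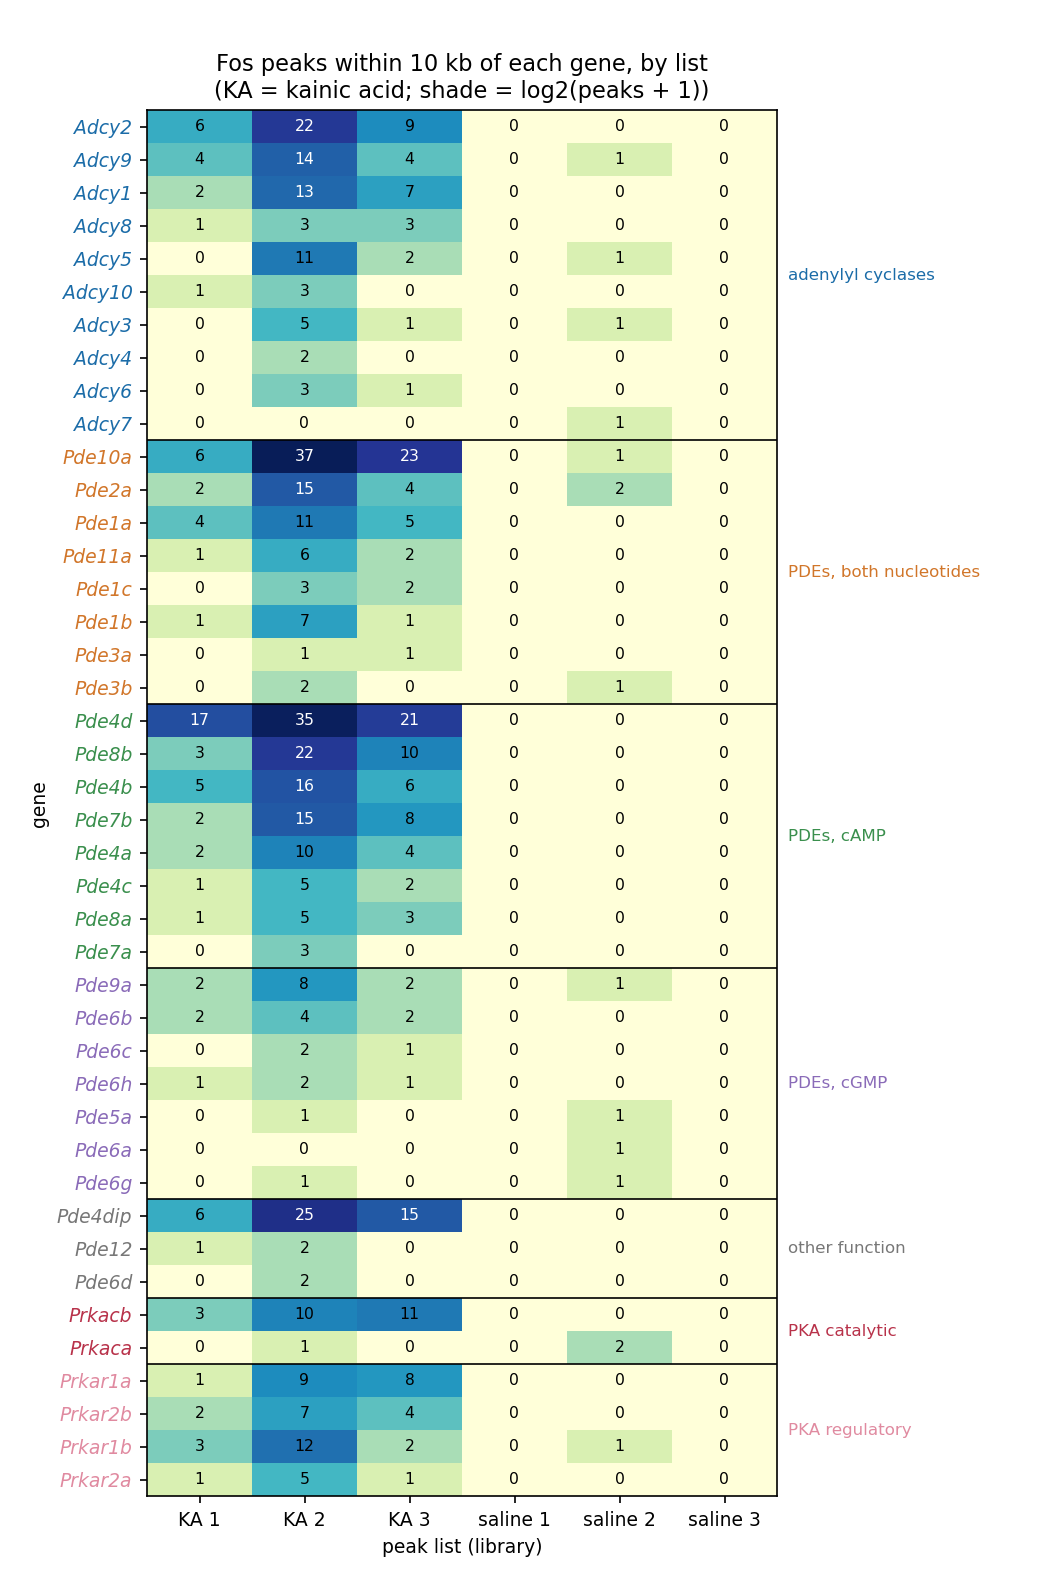
Number of peaks within 10 kb of each of the 42 genes (rows, grouped by role) in each of the 6 lists (columns). The number is written in each cell, and colour shows log2 of the number plus 1. Kainic acid replicate 2 has the highest number in most rows, Pde10a reaching 37, and the columns of saline replicates 1 and 3 hold only 0.

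The 10 cyclases had 25 regions near 7 of them, against a sum of 6.75 for genes of similar length, and 8 of the regions were in all 3 lists. Adcy2, a cyclase stimulated by G protein beta-gamma subunits, led with 8 regions, and its peaks numbered 6, 22 and 9 in kainic acid replicates 1, 2 and 3 and 0 in every saline list. Of the 8, 6 were in all 3 lists, all inside the gene, from 53.6 to 365 kb after its 5′ end. Adcy9, a cyclase weakly sensitive to forskolin, had 6 regions with 4, 14 and 4 kainic acid peaks and 0, 1 and 0 saline peaks. None of its 6 regions was in all 3 lists, so each rests on a pair of libraries. Adcy9 had 3 regions without replicate 1, 0 without replicate 2 and 3 without replicate 3.

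The calcium-stimulated cyclases Adcy1 and Adcy8 are those most tied to synaptic plasticity. Adcy1 had 4 regions, with 2, 13 and 7 kainic acid peaks and no saline peak. A region 4.27 kb after its 5′ end (chr11:7067293-7068120) had folds of 6.24, 9.18 and 9.34 over the background in replicates 1, 2 and 3, from 25, 33 and 46 reads over the summit. The region 71.1 kb after the 5′ end had folds of 5.90, 13.6 and 6.82. Adcy8 had 3 regions in its 223 kb, with 1, 3 and 3 kainic acid peaks, and no region was in all 3 lists. Adcy3, the cyclase of olfactory neurons and of primary cilia, had 1 region with 0, 5 and 1 kainic acid peaks and a saline replicate 2 peak. Adcy5, the main striatal cyclase, had 2 regions with 0, 11 and 2 kainic acid peaks and a saline replicate 2 peak, and neither Adcy3 nor Adcy5 had a region without replicate 2 or without replicate 3. The soluble, bicarbonate-sensitive cyclase Adcy10 had 1, beside another gene and outside its own span. Adcy4, Adcy6 and Adcy7 had no region, and their kainic acid peaks numbered 0, 2 and 0 for Adcy4, 0, 3 and 1 for Adcy6 and 0 in every list for Adcy7.

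Among the 8 phosphodiesterases that cleave both nucleotides, 7 had a region, against 6.47 for genes of similar length, and 11 of their 32 regions were in all 3 lists. Pde10a held 17 of the 32, with 6, 37 and 23 kainic acid peaks and 0, 1 and 0 saline peaks. Only 4 of its 17 were in all 3 lists, and its regions numbered 4 without replicate 2 and 6 without replicate 3. Its best region (chr17:8562093-8563212), 37.5 kb after the 5′ end, had folds of 11.04, 17.3 and 12.5 from 45, 63 and 62 reads. Genes of the same length had a median of 6 regions, and 167 of the 200 had fewer than Pde10a.

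Calcium and calmodulin activate the Pde1 enzymes, whose genes differ widely in length. Pde1a had 4 regions, all 4 in all 3 lists and all inside the gene, with 4, 11 and 5 kainic acid peaks, against a median of 5 regions for its 362 kb. Pde1c, longer at 583 kb, had 2 regions with 0, 3 and 2 kainic acid peaks, and 155 of the 200 genes of its length had more. Pde1b, with a span of 27.0 kb, had 1 region, in all 3 lists, with 1, 7 and 1 peaks, against a median of 0. That region lay 7.11 kb past the 3′ end of Pde1b, with its midpoint inside another gene, Ppp1r1a. Pde2a, which cyclic GMP stimulates, had 5 regions with 2, 15 and 4 kainic acid peaks, and its 2 peaks in saline replicate 2 made its groups overlap (exact permutation p = 0.2). Its regions numbered 1 without kainic acid replicate 2 and 2 without replicate 3. Pde11a had 2 regions in 353 kb, and 139 of the 200 genes of its length had more.

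The cyclic GMP-inhibited enzymes Pde3a and Pde3b were low for their length. Pde3a had 0, 1 and 1 kainic acid peaks in 258 kb, which met in 1 region, and 159 of the 200 genes of its length had more regions. Pde3b had 0, 2 and 0 kainic acid peaks and 0, 1 and 0 saline peaks, and no region, while genes of its length had a median of 2. For both genes a count of 0 in replicate 1 comes from the shortest kainic acid list.

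Phosphodiesterases specific for cyclic AMP carried the most regions, 49 near 7 of the 8, and 27 of the 49 were in all 3 lists. Genes of similar length summed to 6 of 8 with a region. In median density the class had 1.66 regions per 100 kb. That was below the PKA regulatory (2.60) and catalytic (2.42) subunits and the genes with another function (3.89). The remaining roles had 0.791 to 1.40. Pde4d, the longest of the 42 genes at 1302 kb and a regulator of memory formation, had 21 regions, 14 of them in all 3 lists, with 17, 35 and 21 kainic acid peaks and none in saline. The region nearest its 5′ end (chr13:108692658-108693756), at 39.0 kb, was also its best, with folds of 8.30, 11.7 and 10.8 from 34, 45 and 54 reads. No further region lay before 461 kb, and the other 20 were spread from there to the 3′ part of the gene. Genes of its length had a median of 9 regions, and 166 of the 200 had fewer than Pde4d.

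Pde4b, also of the rolipram-sensitive family, had 6 regions with 5, 16 and 6 kainic acid peaks, which is the median for its length. Its best region (chr4:102533113-102534321), 446 kb into the gene, had folds of 8.16, 13.7 and 10.9 from 50, 58 and 72 reads. Pde4a had 3 regions in 47.5 kb, with 2, 10 and 4 peaks, and 176 of the 200 genes of its length had fewer. All 3 lay within a few kb of its 5′ end, at 1.01 kb before it and at 1.52 and 2.92 kb after it. Pde4c had 2 regions with 1, 5 and 2 peaks. All 4 genes of the Pde4 family thus had at least 1 region in all 3 lists. That of Pde4c lay 0.999 kb past its 3′ end, with a fold of 2.72 in replicate 1. Rab3a and Mpv17l2 were also within 10 kb, so position alone cannot assign it to Pde4c.

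Pde7 and Pde8 enzymes are insensitive to rolipram. Pde8b had 9 regions with 3, 22 and 10 kainic acid peaks, against a median of 4 for its length. Pde7b had 6 with 2, 15 and 8, against a median of 5 for its length. In all 3 lists were 3 of the 9 and 2 of the 6. Leaving out replicate 2 or replicate 3 left Pde8b with 3 regions in either case, and Pde7b with 2 and 1. The best Pde8b region (chr13:95202312-95202889) had folds of 6.88, 14.1 and 7.32. Pde8a had 2 regions with 1, 5 and 3 peaks, and 1 of them was in all 3 lists. Pde7a had 0, 3 and 0 kainic acid peaks and no region, and 141 of the 200 genes of its length had at least 1.

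**Figure D3:**
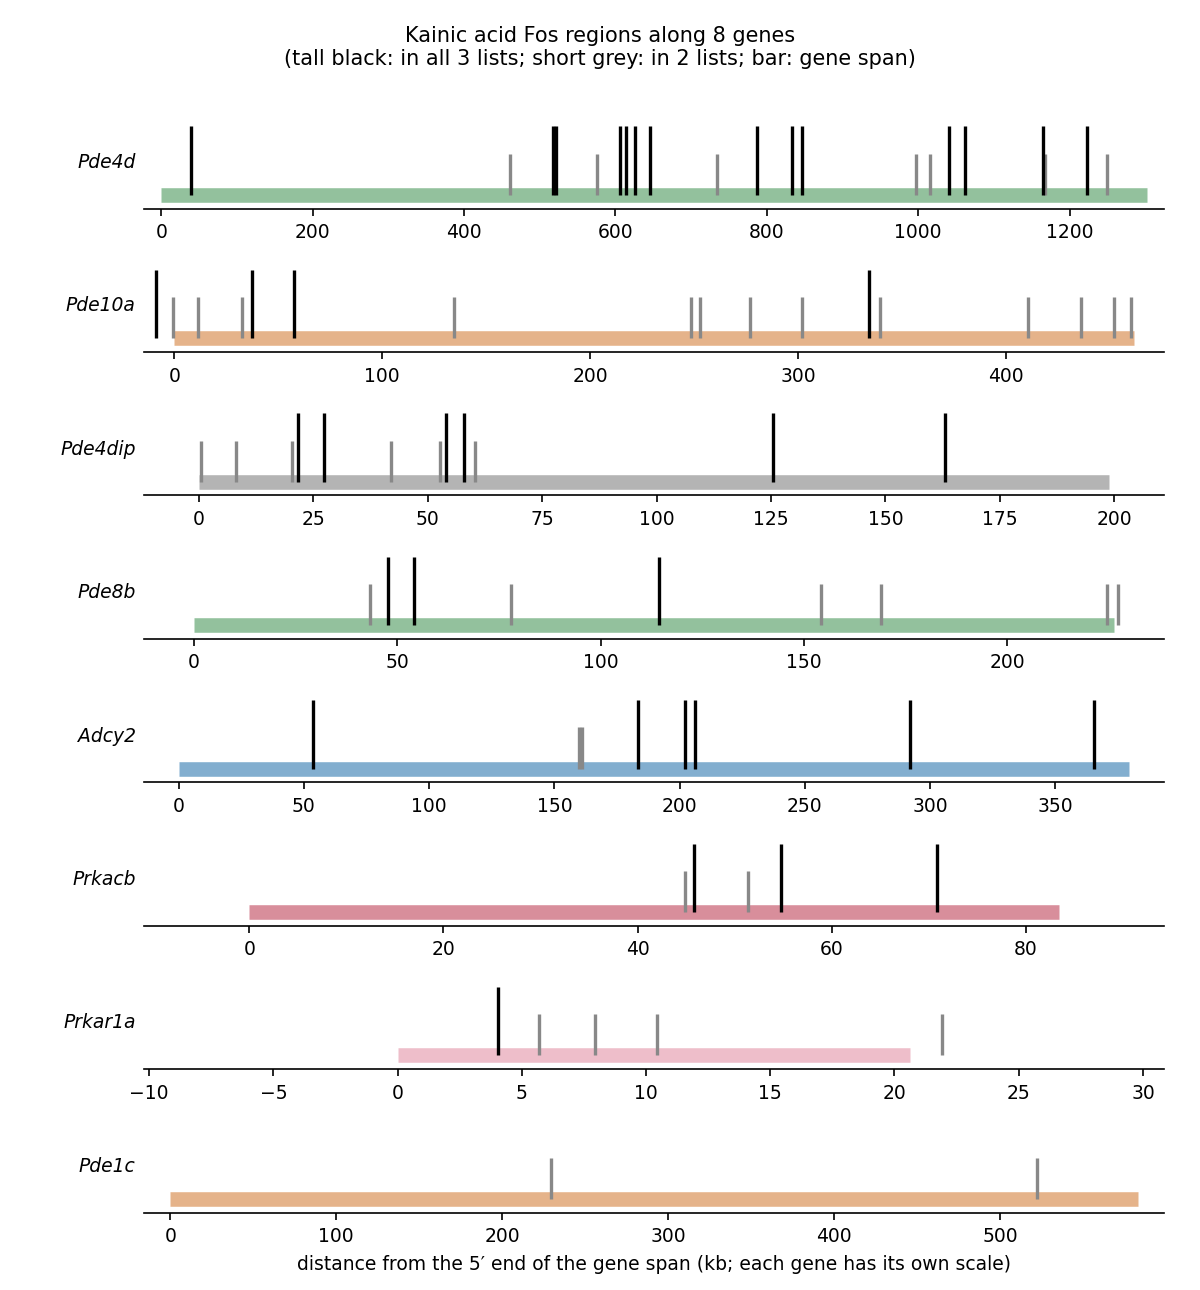
Kainic acid regions along 8 genes, each on its own scale, drawn as distance in kb from the 5′ end of the gene span, with regions in all 3 lists set apart from regions in exactly 2. In Pde4d the region at 39.0 kb stands alone before the other regions, which are spread from 461 kb on, whereas the 5 regions of Prkacb sit between 44.8 and 70.8 kb.

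Genes for cyclic GMP-specific enzymes had few regions, 5 near 4 of the 7, against a sum of 3.88 for genes of similar length. The best-ranked of the 64 regions in all 3 lists belonged to this class and lay 2.81 kb before the 5′ end of Pde6b (chr5:108384402-108386723). Its folds were 12.3, 22.5 and 10.9 from 73, 118 and 77 reads, and its mean percentile rank within the lists was 0.670, where 0 is the highest fold. Pde6b thus had both the best region and the AP-1 motif printed above, although the region does not reach the window. Pde9a, a high-affinity cyclic GMP enzyme found in brain, had 2 regions, both in all 3 lists, with 2, 8 and 2 kainic acid peaks and 0, 1 and 0 saline peaks. Its best (chr17:31465012-31466615) had folds of 9.12, 18.4 and 11.5 from 37, 67 and 57 reads.

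The cone photoreceptor subunits Pde6c and Pde6h had 1 region each, with 0, 2 and 1 and with 1, 2 and 1 kainic acid peaks. Pde5a, the target of sildenafil, had 0, 1 and 0 kainic acid peaks, a saline replicate 2 peak and no region, while 158 of the 200 genes of its length had at least 1. The rod subunits Pde6a and Pde6g had no region either. Pde6a had no kainic acid peak in any list and Pde6g had 0, 1 and 0, and each had a peak in saline replicate 2.

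PKA regulatory subunits all had a region, 4 of 4 against 2.51 for genes of similar length, with 13 regions in all. Prkar1a, which encodes the type I alpha subunit and spans only 20.6 kb, had 5, with 1, 9 and 8 kainic acid peaks and no saline peak. Of the 5, 4 were inside its span. Of the 200 genes of its length 199 had fewer and 0 had more, and its 12.3 regions per 100 kb ranked 152 of 20661 genes. Without replicate 2 or replicate 3 the count was 1: only the region 4.06 kb after the 5′ end (chr11:109652800-109653358) was in all 3 lists, with folds of 3.73, 3.67 and 3.49. Its strongest region (chr11:109654372-109655035) had folds of 10.7 and 4.76 in replicates 2 and 3 from 49 and 30 reads. The fifth region lay past the 3′ end, with its midpoint inside another gene, Fam20a. The CRE of the Prkar1a window printed above began 49 bases before its start site, and no region touched that window.

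Prkar1b, the neuronal type I beta subunit, had 3 regions with 3, 12 and 2 kainic acid peaks and 0, 1 and 0 saline peaks. Its best (chr5:139138132-139138842), 12.2 kb after the 5′ end, had folds of 6.89, 8.19 and 8.30 from 35, 48 and 52 reads. Prkar2b, the type II beta subunit of brain and fat, had 4 regions with 2, 7 and 4 peaks (1 region without replicate 2 and 2 without replicate 3), and Prkar2a had 1, in all 3 lists, with 1, 5 and 1. The catalytic subunits are encoded by genes of unequal length, 83.4 kb for Prkacb and 23.5 kb for Prkaca. Prkacb had 5 regions, 3 of them in all 3 lists, with 3, 10 and 11 kainic acid peaks and none in saline, and 180 of the 200 genes of its length had fewer. Without replicate 2 or replicate 3 it had 3 regions. Its best region (chr3:146766827-146767489) had folds of 4.61, 7.17 and 5.45. Prkaca had no region, which is the median for its length, with 0, 1 and 0 kainic acid peaks and 0, 2 and 0 saline peaks. The difference between these genes was not tested.

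Of the 3 genes with another function, Pde4dip had 12 regions, 6 of them in all 3 lists, with 6, 25 and 15 kainic acid peaks, against a median of 2 for genes of its length. Its best region (chr3:97725234-97726139) had folds of 6.96, 11.6 and 7.15 from 28, 42 and 35 reads. Pde12 had 1 region, with 1, 2 and 0 peaks, and Pde6d had none, with 0, 2 and 0. Without kainic acid replicate 2 or replicate 3, Pde4dip had 6 regions.

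**Figure D4:**
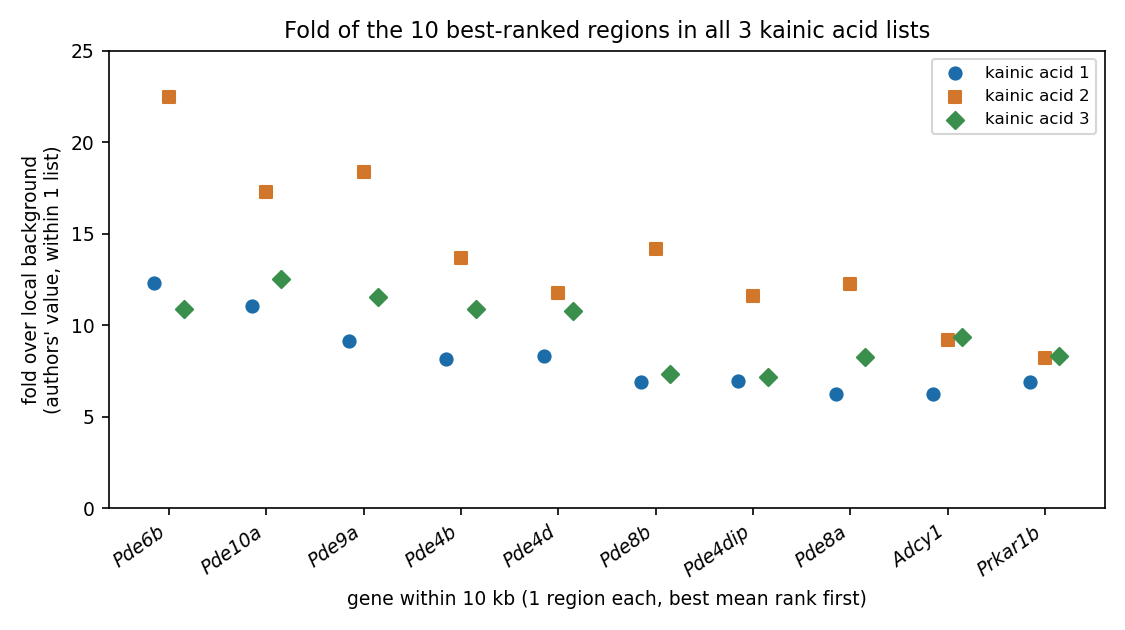
Fold over background (linear axis) in kainic acid replicates 1, 2 and 3, as a point for each list, for the 10 regions of best mean rank among those in all 3 lists. The Pde6b region is highest at 22.5 in replicate 2, and replicate 2 is the highest of the 3 lists in 8 of the 10 regions.

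No region was shared between members, so the counts above add to 142. That number fell to 65 when kainic acid replicate 2 was left out, to 76 without replicate 3 and to 128 without replicate 1. Regions in the whole genome fell in a similar way, from 26862 to 12176, 13526 and 25066 in the same order. Each omission left only a pair of lists, and the difference between these counts was not tested. Of the 142, 64 (45.1%, 95% Clopper-Pearson interval 36.7 to 53.6, which covers counting error only) were in all 3 lists, against 43.4% of the 19767 regions near any protein-coding gene. The median of their mean percentile rank was 42.6, against 41.9 for all regions, and their median width was 708.5 bp, against 686 bp. In how often they recurred, in rank and in width these regions were thus close to the genome. Another protein-coding gene lay within 10 kb of 12 of the 142, so those cannot be assigned to a member by position alone.

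Most of the regions were inside genes and far from gene ends. The midpoint was inside the span for 128 of 142 (90.1%, 84.0 to 94.5), against 74.3% over all genes and 89.5% for genes of similar length. It was within 1 kb of an end of a gene span for 7 of 142 (4.93%, 2.00 to 9.89), against 10.6% of regions near any gene and 6.28% for genes of similar length. The median distance to a gene end was 48.8 kb, against 18.8 kb. As with the number of regions, the difference from the genome in the share inside was much smaller beside genes of the same length. Exons and introns were not told apart, because the gene table used here has none.

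The 15 saline peaks near these genes all came from saline replicate 2, and 11 of them (73.3%) were 1 kb or less from a gene end, against 59.1% of the 3258 autosomal peaks of that list. At Adcy5, Pde3b, Pde5a and Pde9a such a peak was within 1 kb of an end of the member itself, with 17, 22, 15 and 13 reads over the summit. The same held at Adcy7, Pde2a and Prkar1b, with 14, 17 and 19 reads, and at Prkaca and Adcy3. At Prkaca a saline peak with 24 reads and a fold of 3.57 covered the whole window printed above, with no kainic acid peak on it. At Adcy3 a saline peak (18 reads) and a peak of kainic acid replicate 2 (22 reads) shared the promoter window. Only the Pde10a peak (15 reads, fold 3.53) was joined to a region, the one at its printed promoter, against 17.0% of the autosomal peaks of that list. A kainic acid peak of any list was joined to 4 of the 15 (26.7%), against 33.1% of that list. Of the 13 genes with a saline peak, 6 (Adcy7, Pde3b, Pde5a, Pde6a, Pde6g and Prkaca) had no region, which is 46.2%, against 35.1% of all genes with a saline peak.

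Other genes of the pathway were taken from lists by role and are given as counts. All 8 genes of the CREB family and its coactivators had a region, Crtc3 with 5 leading, and so did all 5 other cyclic AMP effectors, where Rapgef4 (Epac2) had 17, 10 of them in all 3 lists. Among PKA inhibitors and anchoring proteins it was 8 of 15, with 20 at Pakap and 15 at Akap6. G protein alpha subunits had 4 of 7, with 6 at Gnao1, and receptors coupled to the inhibitory G protein had 8 of 16, with 5 at the adenosine receptor gene Adora1. Receptors coupled to the stimulatory G protein had 6 of 17, with 14 at the serotonin receptor gene Htr4, 11 of them in all 3 lists. These lists, from receptor to CREB, thus ranged from 35.3% to 100% with a region, beside the 41.8% of all genes, without account of length. Of the marker genes, 4 of 6 of excitatory neurons, 1 of 3 of inhibitory neurons, 3 of 4 of astrocytes, 2 of 3 of oligodendrocytes, 0 of 4 of microglia and 1 of 4 of liver had a region. Which cells of the tissue gave the peaks cannot be told apart in these bulk libraries.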

How the data were processed

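Fos ChIP-seq peaks of mouse hippocampus were analysed in 3 kainic acid and 3 saline libraries, with 1 list of 10 columns per library and no pooling. Per the submitters' processing notes, the tools included Trim Galore 0.6.4, Bowtie2 2.3.4.3, MACS2 and deepTools 3.5.0, with the build mm10. The control library and the calling threshold are not given in the sources used here. The authors' deposited values for each peak are a display score, a fold ratio over the local background, and −log10 of p and of q. The lowest −log10 q in the kainic acid lists was 1.38, 1.35 and 1.35.

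Peaks overlapping by 1 bp or more were joined, and a region needs a peak in at least 2 kainic acid lists. Gene spans and promoters came from RefSeq tables (GRCm38.p6). Reads over a summit were solved from the deposited fold and −log10 p under a Poisson model (348 of 348 peaks, tolerance 0.001). Such reads are not independent molecules. On simulated lists the scripts gave the right number of lists for 2000 of 2000 regions and the right reads for 999 of 1000 peaks. The members, lists and tests were chosen with earlier results of these data known. All members are accounted for: those with 5 or more regions or a saline peak and all PKA subunits are given in detail, as are the 10 regions of best mean rank of fold and the best region of each role, and the rest more briefly. Comparisons with all genes or with genes of similar length are descriptions without a test; the exact permutation test compared numbers of peaks per list. Replicate numbers are not said to mark a shared day or litter. Alternatives changed the −log10 q, the reach, the overlap rule, the length of the lists and the libraries used. Python 3.11.15, pandas 2.3.3, numpy 2.4.6 and scipy 1.17.1 were used.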

Additional observations from a re-analysis of the deposited data

How the results depend on the processing

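Read depth is unknown, and kainic acid replicate 2 has the most peaks, so counts move with list length. The 142 regions near the genes became 94 with −log10 q of at least 5, 45 with at least 10, 64 when all 3 lists were required and 69 with lists of equal numbers of peaks; without 1 kainic acid library they ran from 65 (without replicate 2) to 128 (without replicate 1), with 76 without replicate 3. The 32 genes with a region ran from 22 (−log10 q of at least 10) to 38 (reach of 50 kb). Over all genes the share at these settings was 20.5% and 65.4%, and the sums for genes of similar length were 17.5 and 34.1. The number of members with a region was above that sum under each alternative run. The 24 genes with more peaks in every kainic acid list became 12 with −log10 q of at least 10, while the share of all genes fell from 21.6% to 9.62%. The share of regions inside genes was 63.4% at a reach of 50 kb, which adds sequence outside genes. No result reversed. Of 52 alternative values of these counts and shares and of the median density, 8 moved by more than their limits. This tally does not show that the density was stable. It fell from 1.41 to 0.223 regions per 100 kb with −log10 q of at least 10, and its limit was too wide to count that as moved. Leaving out saline replicate 1 or 3, which had no peak near these genes, could not change the 24 genes. Of 230 alternative counts of single genes, 81 moved by over 1.5 times, 71 of them to fewer regions and 10 to more. The moves to more were all at the reach of 50 kb. Most other alternatives were stricter or left out a list, so the direction of the moves follows from their choice. Many of these counts are small, and the density and the share had other limits, so the tallies are not compared.

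With a replicate block, in which same-numbered lists are compared as pairs, 25 genes had more peaks with kainic acid in each pair, against 24 without it, and 25.6% of all genes. The shared numbers are not said to pair the libraries.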
